A study of Mus musculus with 9 samples.

Results

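Integrins are adhesion receptors made of 1 alpha and 1 beta chain, and 10 genes for such chains that leukocytes are known to use were followed here in murine leukaemia cells with a knockdown of Syncrip. They were chosen by gene symbol (Itgal, Itgam, Itgax, Itgb2, Itga4, Itgb7, Itgb1, Itga5, Itga6 and Itgav). All 10 had 1 entry each among 38926 symbols, and all 10 were among the 12663 genes tested. The cells came from a leukaemia driven by the fusion MLL-AF9, passaged through mice to the tertiary transplant. They carried a control hairpin, shRNA-1 or shRNA-2, of which the numbered pair targets Syncrip, a protein of the hnRNP group that binds RNA, and every group carried the fusion and was transduced. The labels call the control hairpin a scrambled one and the series' design text names luciferase, and the sources do not settle which of these was used. RNA was taken at day 4 after transduction in 3 libraries per group, described as transduced and processed one by one. All libraries came from cells called 1 line, so the p-values measure the spread between cultures of 1 leukaemia, and the labels give no strain, sex or age.

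An alpha chain reaches the cell surface only when it is paired with a beta chain, so the supply of both sets which receptors a cell can build. The beta2 chain (Itgb2) pairs with alphaL, alphaM and alphaX to give LFA-1, Mac-1 (the marker CD11b) and CD11c, which bind ICAM proteins, complement fragments and fibrinogen. The beta1 chain (Itgb1) pairs with alpha4, alpha5, alpha6 and alphaV, and these receptors hold blood stem cells and leukaemia cells to VCAM1, fibronectin and laminin of the bone marrow. The beta7 chain (Itgb7) pairs with alpha4 to bind the gut vessel protein MAdCAM-1.

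The libraries held between 9559638 and 19483923 counts, of which the 10 genes took between 0.0595% and 0.112%. Levels are CPM, read counts scaled to a common library size with TMM factors, and changes are log2 fold changes ± standard error from edgeR's quasi-likelihood test over all 12663 genes, called at a Benjamini-Hochberg adjusted p under 0.05. Syncrip itself stood at 227 ± 17.5 CPM (mean ± SD, n = 3) in the controls. It was down to 17.8 ± 2.13 under shRNA-1 and to 56.7 ± 9.05 under shRNA-2 (n = 3 each), lower in all 6 knockdown libraries than in all controls. Ribosomal RNA took between 4.77% and 8.29% of the counts in the controls, between 12% and 19.3% under shRNA-1 and between 6.10% and 15.8% under shRNA-2. The leukocyte gene Ptprc (CD45) and the myeloid factor gene Spi1 (PU.1) stood at 204 ± 9.75 and 351 ± 44.5 CPM in the controls. Ptprc stood at 129 ± 12.3 with shRNA-1, where it was called lower, and 229 ± 35.6 with shRNA-2. Both belong to a list of 14 myeloid identity genes, all tested. Of these, 4 rose and 6 fell with shRNA-1 (all genes 17.4% and 17.3%). With shRNA-2, 4 rose and 5 fell (all genes 24.4% and 24.2%). Their summed level was 2580 to 2840 CPM in the controls, 3630 to 4720 under shRNA-1 and 4010 to 4920 under shRNA-2. Of markers of other lineages, T cell genes Cd3g and Cd8a and the B cell gene Cd79a had no count in any library. The summed level of 10 B cell genes was 12.2 to 18.6 CPM over all libraries, and that of 14 T and NK cell genes 2.15 to 5.26 CPM. Of 2 tested T and NK genes 1 was called higher with shRNA-2, as were 24.4% of all tested genes. In bulk RNA, fewer cells of a type and less RNA per cell cannot be told apart.

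With shRNA-1, 2 of the 10 integrin genes rose (Itgal and Itgav) and 4 fell (Itgax, Itga4, Itga6 and Itgb7). Of all tested genes, 17.4% were called higher and 17.3% lower in that comparison, so the 6 calls stand beside a background of 34.7%. With shRNA-2, 5 rose (Itgal, Itgam, Itgb2, Itgb7 and Itgav) and 1 fell (Itga4), against a background of 24.4% higher and 24.2% lower, 48.7% in all. Itgal and Itgav rose with both hairpins, where 9.24% of all genes did, and Itga4 fell with both, where 9.57% did. Itgb7 moved in opposite directions, as did 2.66% of all genes, and Itgb1 and Itga5 passed with neither hairpin, as did 38.2%. Both comparisons use the same 3 controls. The median log2 fold change of the 10 genes was -0.01 with shRNA-1 and 0.62 with shRNA-2, and that of all tested genes 0.02 and 0.00. The shift of the median with shRNA-2 is a description of these 10 genes, which are not replicates of a condition.

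**Figure D1:**
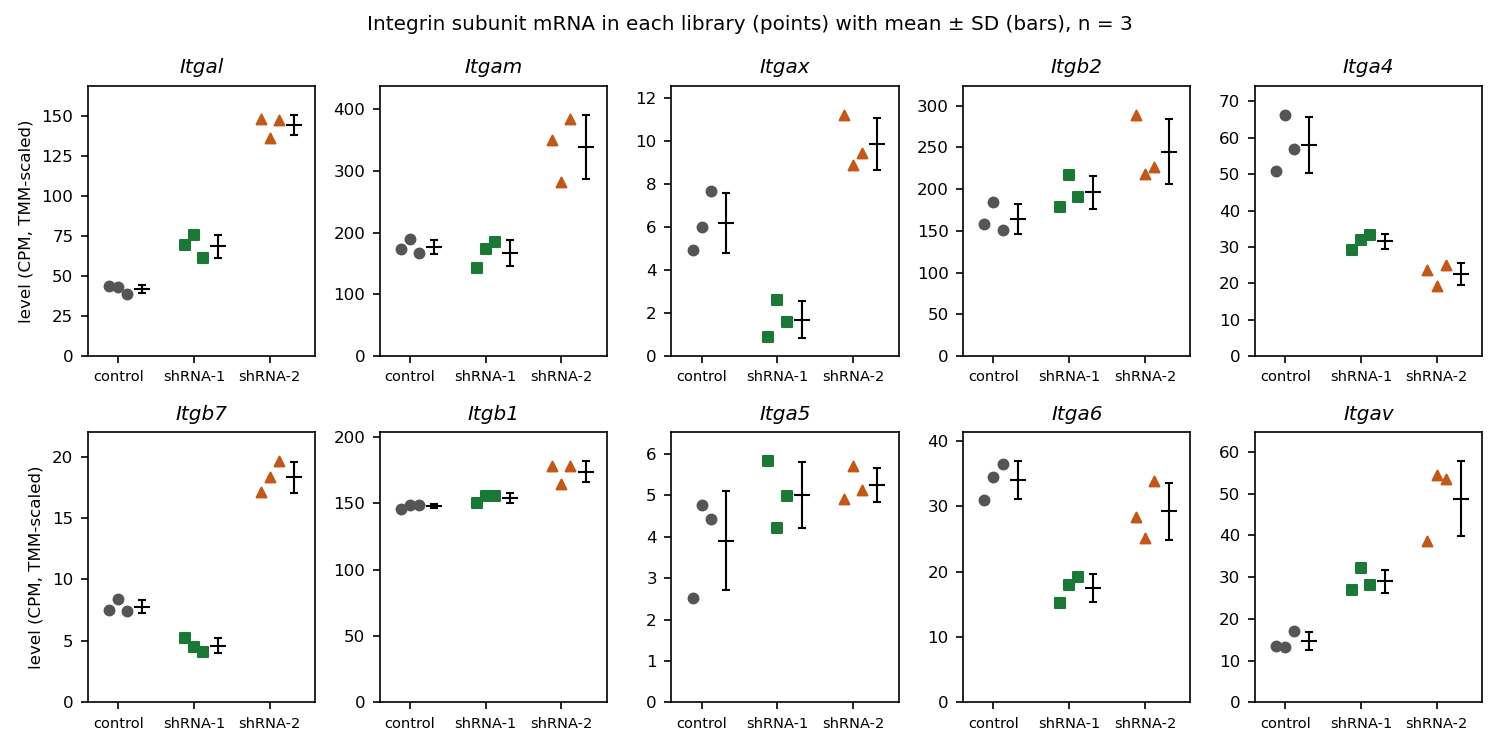
Level of each integrin gene (CPM, linear axes from 0) in the 9 libraries, with points for the libraries of the control, shRNA-1 and shRNA-2 groups and bars for the mean ± SD of 3. Itgal and Itgav lie above the controls in all 6 knockdown libraries, Itga4 lies below them, and Itgb7 lies below with shRNA-1 and above with shRNA-2.

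Among the partners of beta2, Itgal, the alpha chain of LFA-1 through which leukocytes bind ICAM-1, rose with both hairpins. It rose more with shRNA-2, where Syncrip was less reduced (56.7 CPM) than with shRNA-1 (17.8 CPM). The control libraries held 43.4, 42.8 and 38.6 CPM. The libraries under shRNA-1 held 69.5, 75.2 and 60.8, and under shRNA-2 148, 136 and 147. The 3 groups did not overlap. Pair by pair, 49.8% to 55.4% of all genes were apart. The rise was 1.65-fold with shRNA-1 (0.72 ± 0.12, edgeR adjusted p = 0.00109) and 3.46-fold with shRNA-2 (1.79 ± 0.12, adjusted p = 1.28e-06), and between the hairpins (shRNA-1 minus shRNA-2) the difference was -1.07 ± 0.12 (adjusted p = 3.77e-05).

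Itgam, the alpha chain of Mac-1 and a common marker of myeloid cells, rose with shRNA-2 and differed between the hairpins. Its levels were 174, 189 and 167 CPM in the controls, 143, 173 and 185 under shRNA-1, and 351, 282 and 384 under shRNA-2. The shRNA-1 libraries overlapped the controls, and the shRNA-2 libraries lay above both groups. The change was -0.08 ± 0.14 with shRNA-1 (edgeR adjusted p = 0.694) and 0.94 ± 0.15 with shRNA-2 (adjusted p = 0.000276), with a tested difference between the hairpins of -1.02 ± 0.15 (adjusted p = 0.000225).

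Itgax, the alpha chain of CD11c, known from dendritic cells and macrophages, was a low transcript that fell with shRNA-1. It stood at 4.92, 5.97 and 7.65 CPM in the controls, 0.879, 2.61 and 1.57 under shRNA-1, and 11.2, 8.89 and 9.44 under shRNA-2. The shRNA-1 values rest on 8, 34 and 17 reads. The 3 groups did not overlap. Pair by pair, libraries were apart for 52.6% of all genes (shRNA-1 and control), 55.4% (shRNA-2 and control) and 49.8% (between the hairpins). The share with all 3 groups apart was not taken. Itgax was 3.54-fold lower with shRNA-1 (-1.82 ± 0.31, edgeR adjusted p = 0.00138) and missed the threshold with shRNA-2 (0.67 ± 0.26, adjusted p = 0.0527). The hairpins differed by -2.49 ± 0.31 (adjusted p = 9.09e-05), the largest difference between them among the 10 genes. With shRNA-2 the call of Itgax turned on the method, with an adjusted p from 0.0142 to 0.221 over 19 alternatives and under the threshold in 11 of them.

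Itgb2, the beta chain that all of these alpha chains need, rose with shRNA-2. The controls held 158, 184 and 151 CPM, the libraries of shRNA-1 179, 217 and 191, and the libraries of shRNA-2 289, 218 and 227. The shRNA-1 libraries overlapped the controls, and all 3 shRNA-2 libraries lay above them. The change was 0.25 ± 0.14 with shRNA-1 (edgeR adjusted p = 0.189) and 0.58 ± 0.14 with shRNA-2 (adjusted p = 0.00580), and the difference between the hairpins missed the threshold (-0.32 ± 0.14, adjusted p = 0.0921). The shRNA-2 call of Itgb2 was lost with total-count scaling (0.37, adjusted p = 0.0903), which moves the median of all genes to -0.21.

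Itgam and Itgax are neighbours on chromosome 7, with 11.1 kb between them and no other protein-coding gene in that gap on GRCm38, the assembly of mm10. Itgam lies at 128062640 to 128118491 and Itgax at 128129547 to 128150657, both on the plus strand. Itgad, which encodes another alpha chain that pairs with beta2 and starts 3.7 kb past the end of Itgax, had 3 reads in all 9 libraries together. Itgal lies on the same chromosome at 127296260 to 127335138, 727.5 kb before Itgam with 38 protein-coding genes between. The neighbours Itgam and Itgax stood at -0.08 ± 0.14 and -1.82 ± 0.31 with the same hairpin.

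Sequences before the start site are shown for this pair of neighbours, which stood apart with shRNA-1, and for Itga4 and Itgav, which fell and rose with both hairpins. They are the 250 bases before the RefSeq start on GRCm38.p6, read 5′ to 3′ along the gene, from chr7:128062390-128062639, chr7:128129300-128129549, chr2:79255176-79255425 and chr2:83724147-83724396, all on the plus strand. Capitals mark matches to GAGGAA (a core bound by PU.1, the ETS factor of myeloid cells), TGTGGT (a core bound by RUNX factors) or GGGCGG (the GC box bound by SP1), on either strand. RefSeq starts were found for 7 of the 10 genes, without Itgal, Itga6 and Itgb2.
Itgam: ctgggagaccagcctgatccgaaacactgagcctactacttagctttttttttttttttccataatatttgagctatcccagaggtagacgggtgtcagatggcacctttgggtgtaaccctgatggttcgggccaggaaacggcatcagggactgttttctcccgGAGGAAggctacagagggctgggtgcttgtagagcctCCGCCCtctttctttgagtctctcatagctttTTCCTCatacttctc
Itgax: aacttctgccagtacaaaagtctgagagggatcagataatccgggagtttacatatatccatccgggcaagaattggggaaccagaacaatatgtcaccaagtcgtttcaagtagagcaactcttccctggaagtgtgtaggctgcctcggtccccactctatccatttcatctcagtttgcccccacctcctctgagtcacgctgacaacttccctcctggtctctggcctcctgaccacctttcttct
Itga4: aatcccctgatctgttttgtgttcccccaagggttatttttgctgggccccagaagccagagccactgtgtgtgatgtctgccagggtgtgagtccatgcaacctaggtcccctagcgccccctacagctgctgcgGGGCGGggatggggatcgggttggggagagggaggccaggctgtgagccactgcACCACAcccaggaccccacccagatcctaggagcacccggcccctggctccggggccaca
Itgav: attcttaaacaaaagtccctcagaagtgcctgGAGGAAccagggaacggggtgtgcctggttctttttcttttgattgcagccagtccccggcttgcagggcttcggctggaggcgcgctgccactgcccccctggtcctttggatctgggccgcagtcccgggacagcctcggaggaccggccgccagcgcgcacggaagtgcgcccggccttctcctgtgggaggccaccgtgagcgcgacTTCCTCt

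The Itgam window held GAGGAA at 84 bases before the start on the plus strand and at 15 bases on the minus strand (counted from the left end of the match), and a GC box at 47. The Itgav window held GAGGAA at 218 and 7, and the Itga4 window a RUNX core at 60 and a GC box at 114. The Itgax window held none of the 3 motifs. Among the windows not shown, that of Itga5 held GAGGAA at 127 and GC boxes at 149 and 6. Bases checked just after this RefSeq start were in no GENCODE M21 transcript of Itga5, whose start there (103366763) lies further along the gene. The Itgb1 window held GAGGAA at 9 and a GC box at 151, and the Itgb7 window held none. Itga5 and Itgb1 passed with neither hairpin, and Itgb7 was called with both. Over 32851 RefSeq windows of the same length, 23.3% held GAGGAA, 14.0% TGTGGT and 32.7% GGGCGG on either strand. These are matches of letters, and binding was not measured.

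Itga4, the alpha chain of VLA-4, which binds VCAM1 and fibronectin and holds stem cells and leukaemia cells in the marrow, was the 1 integrin gene that fell with both hairpins. Its levels were 50.9, 66.3 and 56.9 CPM in the controls, 29.2, 31.8 and 33.4 under shRNA-1, and 23.6, 19.1 and 25.0 under shRNA-2. The 6 knockdown libraries lay below the 3 controls. Such a separation, in either direction, held for Itga4, Itgal, Itgav and Itgb1 and for 27.2% of all genes. The fall was 1.84-fold with shRNA-1 (-0.88 ± 0.14, edgeR adjusted p = 0.00101) and 2.57-fold with shRNA-2 (-1.36 ± 0.14, adjusted p = 1.94e-05). The difference between the hairpins (0.48 ± 0.14, adjusted p = 0.0191) did not pass when replicate 2 or 3 of shRNA-1 or replicate 2 of shRNA-2 was left out (adjusted p from 0.0537 to 0.0645) and with total-count scaling (0.0649). Itga4 (chromosome 2, 79255426 to 79333123) shares 127 exon bases with Cerkl on the other strand, and Cerkl itself had between 8 and 25 reads per library. Itgam shares 3450 exon bases with Gm49368 on the same strand in GENCODE M21, a symbol that the count tables do not list.

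Itgb7, the beta chain that joins alpha4 in the gut-homing receptor, was lower with shRNA-1 and higher with shRNA-2. The controls held 7.55, 8.42 and 7.43 CPM, the libraries of shRNA-1 5.27, 4.53 and 4.06, and the libraries of shRNA-2 17.1, 18.3 and 19.6. The 3 groups did not overlap. Pair by pair, 49.8% to 55.4% of all genes were apart. Itgb7 fell 1.69-fold with shRNA-1 (-0.76 ± 0.16, edgeR adjusted p = 0.00449) and rose 2.35-fold with shRNA-2 (1.23 ± 0.15, adjusted p = 4.95e-05). The hairpins differed 3.97-fold (-1.99 ± 0.16, edgeR adjusted p = 5.28e-06). All of these calls held under all 19 alternatives. The level of Itga4 per length was 2.04 ± 0.166 times that of Itgb7 in the controls, 1.90 ± 0.369 times under shRNA-1 and 0.339 ± 0.0470 times under shRNA-2 (mean ± SD of 3 libraries, CPM per kb of exon).

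Itgb1, the shared chain of the matrix receptors, passed in no comparison. Its 3 controls held 146, 149 and 149 CPM, the libraries of shRNA-1 150, 156 and 156, and the libraries of shRNA-2 178, 165 and 178. Both hairpin groups lay above the controls, with shRNA-1 by a margin smaller than the spread of either group. The changes were 0.06 ± 0.10 (edgeR adjusted p = 0.704) and 0.23 ± 0.10 (adjusted p = 0.0786). The first turned to -0.19 with total-count scaling, and the other passed in 3 of 19 alternatives (lowest adjusted p = 0.0309).

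Itga5, the alpha chain of the classical fibronectin receptor, was a low transcript that passed in no comparison. It stood at 2.53, 4.77 and 4.42 CPM in the controls, 5.82, 4.22 and 4.98 under shRNA-1, and 4.91, 5.72 and 5.13 under shRNA-2, on 50 to 100 reads per library. Control replicate 1 lay below all other libraries, and the shRNA-1 libraries overlapped the controls. The changes were 0.35 ± 0.25 (edgeR adjusted p = 0.301) and 0.43 ± 0.25 (adjusted p = 0.172).

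Itga6, the alpha chain of laminin receptors, fell with shRNA-1. Its levels were 30.9, 34.5 and 36.5 CPM in the controls, 15.2, 18 and 19.2 under shRNA-1, and 28.4, 25.2 and 33.9 under shRNA-2. The shRNA-1 libraries lay below all others, and the shRNA-2 libraries overlapped the controls. The fall was 1.94-fold with shRNA-1 (-0.96 ± 0.15, edgeR adjusted p = 0.000837), the value with shRNA-2 was -0.22 ± 0.14 (adjusted p = 0.222), and the hairpins differed by -0.74 ± 0.15 (adjusted p = 0.00209).

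Itgav, the alpha chain of receptors for vitronectin and osteopontin, which macrophages use to take up dying cells, rose with both hairpins. The controls held 13.5, 13.3 and 17.2 CPM, the libraries of shRNA-1 26.8, 32.1 and 28.1, and the libraries of shRNA-2 38.6, 54.4 and 53.5. The 3 groups did not overlap. Pair by pair, 49.8% to 55.4% of all genes were apart. The rise was 1.97-fold with shRNA-1 (0.98 ± 0.17, edgeR adjusted p = 0.00129) and 3.32-fold with shRNA-2 (1.73 ± 0.17, adjusted p = 1.05e-05), and the hairpins differed by -0.75 ± 0.16 (adjusted p = 0.00336). On chromosome 2, where Itgav, Itga4 and Itga6 all lie, Itgav and Itga4 are 4391.3 kb apart with 13 protein-coding genes between, and they moved in opposite directions.

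**Figure D2:**
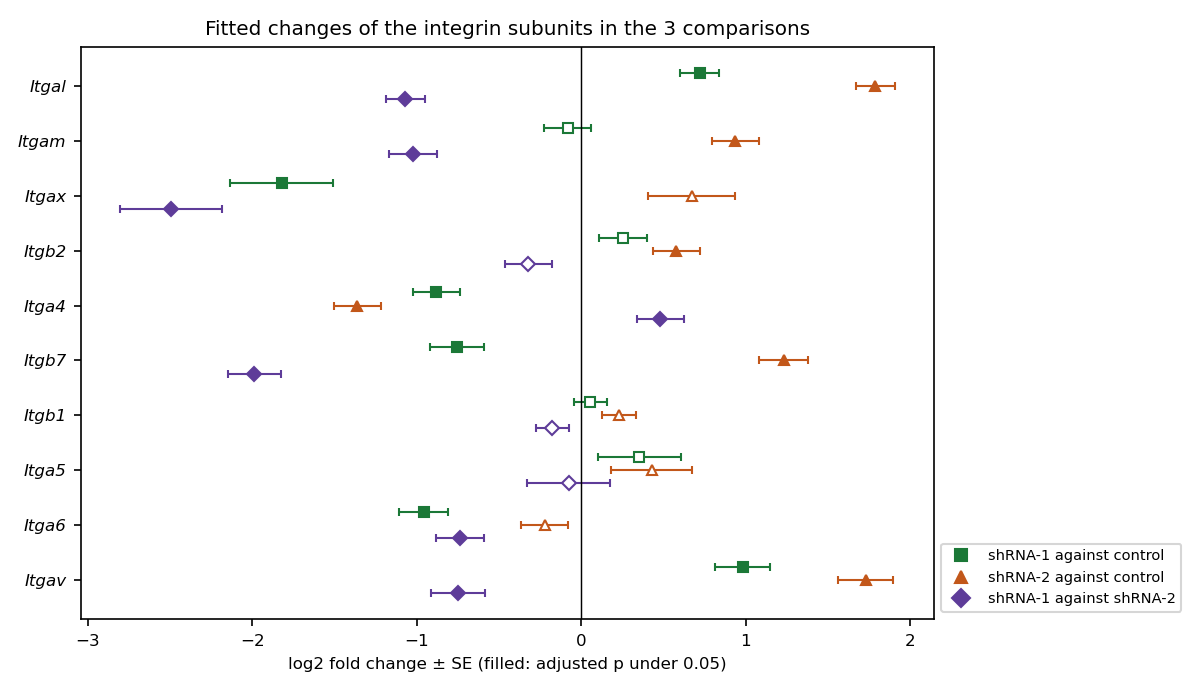
Fitted log2 fold change ± SE of each integrin gene for shRNA-1 against control, shRNA-2 against control and shRNA-1 against shRNA-2, with filled symbols at an adjusted p under 0.05. Itgal and Itgav lie to the right of 0 and Itga4 to the left of 0 against control with both hairpins, and the symbols of Itgb7 lie on opposite sides.

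Between the hairpins, 7 of the 10 integrin genes differed, 6 lower with shRNA-1 and 1 (Itga4) higher, against 21.3% and 19.7% of all genes, 41.0% in all. Itgal, Itgav, Itga4 and Itgb7 were called in all 3 comparisons, where 8.20% of all genes were. Itgb1, Itgb2 and Itga5 did not pass between the hairpins. The libraries of the hairpins did not overlap for 9 of the 10 genes, as for 49.8% of all genes.

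To compare genes with one another, levels were divided by the length of their exons, in CPM per kb. The libraries were primed at the poly(A) tail, so this order is approximate. In the controls Itgb2 led with 55.3 ± 5.96 CPM per kb, then Itgb1 with 38.8 ± 0.402 and Itgam with 35.9 ± 2.21, which overlapped. Itga6 (7.80 ± 0.650), Itgal (6.52 ± 0.411) and Itga4 (5.94 ± 0.795) followed, the last pair overlapping, and Itgb7 (2.91 ± 0.201), Itgav (2.08 ± 0.315), Itgax (1.43 ± 0.318) and Itga5 (0.892 ± 0.275) came last.

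The order changed with both hairpins. With shRNA-1, Itgal held rank 4 at 10.7 ± 1.13 CPM per kb, Itgav (4.11 ± 0.391) overlapped Itga6 (4.00 ± 0.477), and Itgax came last at 0.389 ± 0.201. With shRNA-2, Itgam (68.8 ± 10.5) overlapped Itgb2 (82.4 ± 13.1), and Itgal stood at 22.5 ± 0.998. Itgav (6.92 ± 1.26), Itgb7 (6.82 ± 0.467) and Itga6 (6.69 ± 1.00) overlapped, as did Itga4 (2.31 ± 0.313) and Itgax (2.27 ± 0.282).

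The sum of Itgal, Itgam and Itgax per length was 0.797 ± 0.0418 times that of Itgb2 in the controls, 0.685 ± 0.0481 times under shRNA-1 and 1.15 ± 0.182 times under shRNA-2 (mean ± SD, n = 3). Itgal made up 14.9% ± 0.721 of that sum in the controls, 24% ± 3.62 under shRNA-1 and 24.2% ± 2.10 under shRNA-2. Its share was higher in all 6 knockdown libraries, from 20.1% to 27.2%, than in the 3 controls, from 14.4% to 15.7%. These are ratios of RNA levels within a library, and no protein was measured.

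**Figure D3:**
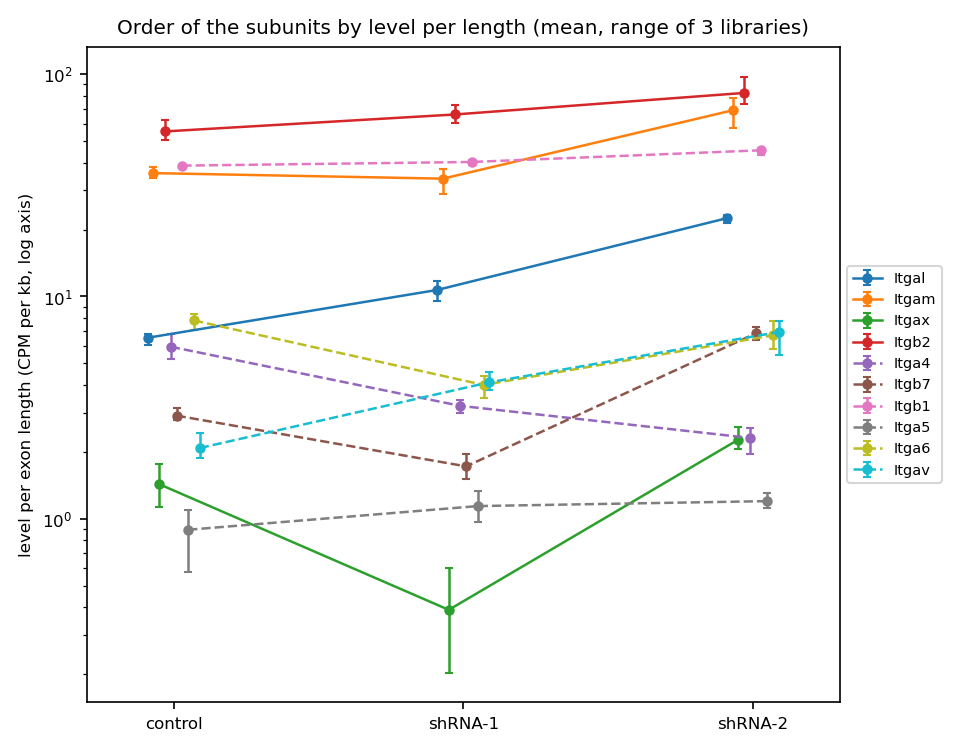
Level of each integrin gene per length of exon (CPM per kb, log axis) by group, with the mean and the range of 3 libraries and solid lines for Itgb2 and its alpha partners. Itgb2 leads in all groups, Itgax drops to the last place with shRNA-1 at 0.389 CPM per kb, and Itgam reaches the range of Itgb2 with shRNA-2.

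Of a list of 16 other integrin genes, 3 had enough reads to be tested (Itga1, Itgb3 and Itgb5), and these rose with shRNA-2, as did 24.4% of all genes. Itgb2l, a paralog of Itgb2 that stands outside that list and was singled out after its values were seen, was also tested and fell with shRNA-2. Itgb5 and Itgb3 encode beta chains that pair with alphaV, and Itga1 encodes a collagen receptor chain that pairs with beta1. Itgb3 stood at 5.83, 6.17 and 8.05 CPM in the controls, 3.29, 3.99 and 3.88 under shRNA-1, and 40.6, 25.3 and 30.8 under shRNA-2. The groups did not overlap. Pair by pair, 49.8% to 55.4% of all genes were apart. Itgb3 fell by 0.84 with shRNA-1 (edgeR adjusted p = 0.0128) and rose by 2.27 ± 0.20 with shRNA-2 (adjusted p = 5.29e-06). The fall was lost without control replicate 3 (-0.68, edgeR adjusted p = 0.0619) and when the share of ribosomal RNA entered as a covariate (-0.29, adjusted p = 0.418). Itgb5 went from 26.1, 21.6 and 24.5 CPM in the controls to 63.5, 93.7 and 87.6 with shRNA-2 (1.76 ± 0.16, edgeR adjusted p = 6.48e-06) and was at 16.6, 17.5 and 19.7 under shRNA-1 (-0.42 ± 0.16, adjusted p = 0.0593, and under the threshold in 7 of 19 alternatives).

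Itga1 rose with shRNA-2 (1.52 ± 0.24, edgeR adjusted p = 0.000357), and its shRNA-1 value was -0.62 ± 0.27 (adjusted p = 0.0955). All 3 of these genes were called lower with shRNA-1 than with shRNA-2, as were 21.3% of all genes. The differences were -2.13 ± 0.26 for Itga1, -3.11 ± 0.22 for Itgb3 and -2.18 ± 0.16 for Itgb5 (edgeR adjusted p from 1.95e-06 to 8.30e-05). So Itgav rose with both hairpins, while its partners Itgb3 and Itgb5 rose with shRNA-2 and were called higher with shRNA-1 in no alternative. Itga2b, the platelet chain, had 53 reads in all 9 libraries together, Itgae 5 and Itgb6 none. Itgb2l stood at 17.4, 10.1 and 13.4 CPM in the controls, 12.8, 14.5 and 13 under shRNA-1, and 6.81, 3.79 and 2.97 under shRNA-2. Its change was -0.02 ± 0.26 (edgeR adjusted p = 0.959) and -1.59 ± 0.28 (adjusted p = 0.000674), while Itgb2 rose with shRNA-2. The reads of close paralogs are uncertain, since how reads with several positions were counted was not stated.

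Integrins bind only after activation from inside the cell, where the GTPase Rap1 brings talin and kindlin to the beta tail. Of 19 tested genes of this step, 6 rose and 3 fell with shRNA-1, and 7 rose and 5 fell with shRNA-2, with medians of 0.15 and 0.04. The shares of all tested genes were 17.4% higher and 17.3% lower with shRNA-1, and 24.4% and 24.2% with shRNA-2. Rap1a, 1 of the Rap1 genes, went from 97.0, 96.9 and 94.7 CPM in the controls to 147, 152 and 172 with shRNA-1 and 126, 146 and 119 with shRNA-2 (0.71 ± 0.12 and 0.44 ± 0.12, edgeR adjusted p = 0.00117 and 0.00908), the call with shRNA-2 being lost with total-count scaling (0.126). Tln1, the talin that links the beta tail to actin, went from 287, 304 and 278 CPM to 132, 165 and 149 with shRNA-1 (-0.96 ± 0.16, edgeR adjusted p = 0.00119), a call lost only when the share of ribosomal RNA entered as a covariate (0.0592). With shRNA-2 it stood at 248, 164 and 241 CPM (-0.41 ± 0.16, adjusted p = 0.0498), a call lost in 12 of 19 alternatives. The counts of this list moved with single libraries, and when the share of ribosomal RNA entered as a covariate 1 gene rose and the 3 falls with shRNA-1 were not called. With total-count scaling 1 rose and 4 fell with shRNA-1. The rises with shRNA-1 numbered 1 without control replicate 2 and 2 without control replicate 3 or shRNA-1 replicate 2, and the falls with shRNA-2 numbered 2 without control replicate 2 or control replicate 3 and 3 without control replicate 1, shRNA-1 replicate 2, shRNA-2 replicate 1 or shRNA-2 replicate 3.

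Of 30 tested genes of focal adhesions and of signalling from bound integrins, 6 rose and 4 fell with shRNA-1, and 15 rose and 2 fell with shRNA-2, with medians of 0.11 and 0.36. The all-gene shares were 17.4% higher and 17.3% lower with shRNA-1, and 24.4% and 24.2% with shRNA-2. Lyn, a Src family kinase that acts beneath leukocyte integrins, had 0.65 ± 0.16 and 1.38 ± 0.16 as its rises (edgeR adjusted p = 0.00892 and 4.10e-05), from 93.2, 102 and 97.6 CPM to 118, 168 and 174 and to 213, 268 and 279. The shRNA-1 call was lost with total-count scaling (adjusted p = 0.0656) and with that covariate of ribosomal RNA (0.207). The falls with shRNA-1 numbered 1 without control replicate 3 or shRNA-1 replicate 1 and 2 without control replicate 2, shRNA-1 replicate 2 or shRNA-1 replicate 3. The 15 rises with shRNA-2 became 11 without control replicate 1 or control replicate 2 and 10 without shRNA-2 replicate 3. With total-count scaling the rises numbered 2 under shRNA-1 and 8 under shRNA-2, where 5 genes fell, and with the covariate the 4 falls with shRNA-1 were not called.

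Of 17 tested ligands and counter-receptors, 3 rose and 3 fell with shRNA-1, and 11 rose and 2 fell with shRNA-2, with medians of -0.39 and 0.91. The all-gene shares were 17.4% higher and 17.3% lower with shRNA-1, and 24.4% and 24.2% with shRNA-2. Thbs1, the matrix protein thrombospondin that alphaV and other integrins bind, went from 90.2, 90.4 and 80.1 CPM to 249, 456 and 471 with shRNA-1 and 1120, 636 and 687 with shRNA-2. The 6 knockdown libraries lay above all controls. Its change was 2.17 ± 0.26 and 3.23 ± 0.27 (edgeR adjusted p = 0.000215 and 4.51e-06), and these calls held in all 19 alternatives. Fn1, fibronectin, stood at 1.94 ± 0.734 CPM in the controls and rose with each hairpin, by 1.61 ± 0.40 and 2.33 ± 0.39 (edgeR adjusted p = 0.00985 and 0.000488), and its shRNA-1 call was lost without shRNA-1 replicate 2 (adjusted p = 0.0633). The falls of ligands with shRNA-1 numbered 1 without control replicate 3 or shRNA-1 replicate 2 and 6 without shRNA-2 replicate 1. With total-count scaling 2 ligands rose and 7 fell with shRNA-1, and 9 rose and 4 fell with shRNA-2. With the ribosomal RNA covariate 3 rose and 1 fell with shRNA-1, and in a fit of only the groups compared 3 rose and 7 fell.

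Of 19 tested surface partners, among them tetraspanins, 8 rose and 0 fell with shRNA-1, and 11 rose and 1 fell with shRNA-2, with medians of 0.46 and 0.68. The all-gene shares were 17.4% higher and 17.3% lower with shRNA-1, and 24.4% and 24.2% with shRNA-2. The rises with shRNA-1 numbered 5 without control replicate 2, control replicate 3 or shRNA-1 replicate 2, 4 without shRNA-1 replicate 3 and 1 when the share of ribosomal RNA entered as a covariate, and the fall with shRNA-2 was lost without control replicate 2, control replicate 3, shRNA-2 replicate 2 or shRNA-2 replicate 3. Of the 19 partners, 0 were lower with shRNA-1 at an unadjusted p under 0.05 in edgeR's test, DESeq2 called 0 and total-count scaling 1. With that scaling the 8 rises with shRNA-1 became 3.

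Of 18 tested genes of integrin uptake and recycling, 4 rose and 2 fell with shRNA-1 and 7 rose and 3 fell with shRNA-2, with medians of 0.12 and 0.30. The all-gene shares were 17.4% higher and 17.3% lower with shRNA-1, and 24.4% and 24.2% with shRNA-2. Gga3, an adaptor that sorts receptors back to the surface, fell from 42.4, 45.7 and 46.3 CPM to 28.2, 27.6 and 27.8 with shRNA-1 and 32.9, 29.9 and 35.6 with shRNA-2 (-0.69 ± 0.11 and -0.45 ± 0.11, edgeR adjusted p = 0.00117 and 0.00596), and these calls held in all 19 alternatives. The shRNA-1 counts of trafficking genes fell to between 0 and 2 rises without any 1 of the controls, shRNA-1 replicate 2, shRNA-1 replicate 3 or shRNA-2 replicate 3, and to 1 fall without control replicate 2, control replicate 3, shRNA-1 replicate 2 or shRNA-1 replicate 3. With total-count scaling the 4 rises with shRNA-1 were not called and 4 trafficking genes fell, and with the ribosomal RNA covariate 1 rose and 1 fell.

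**Figure D4:**
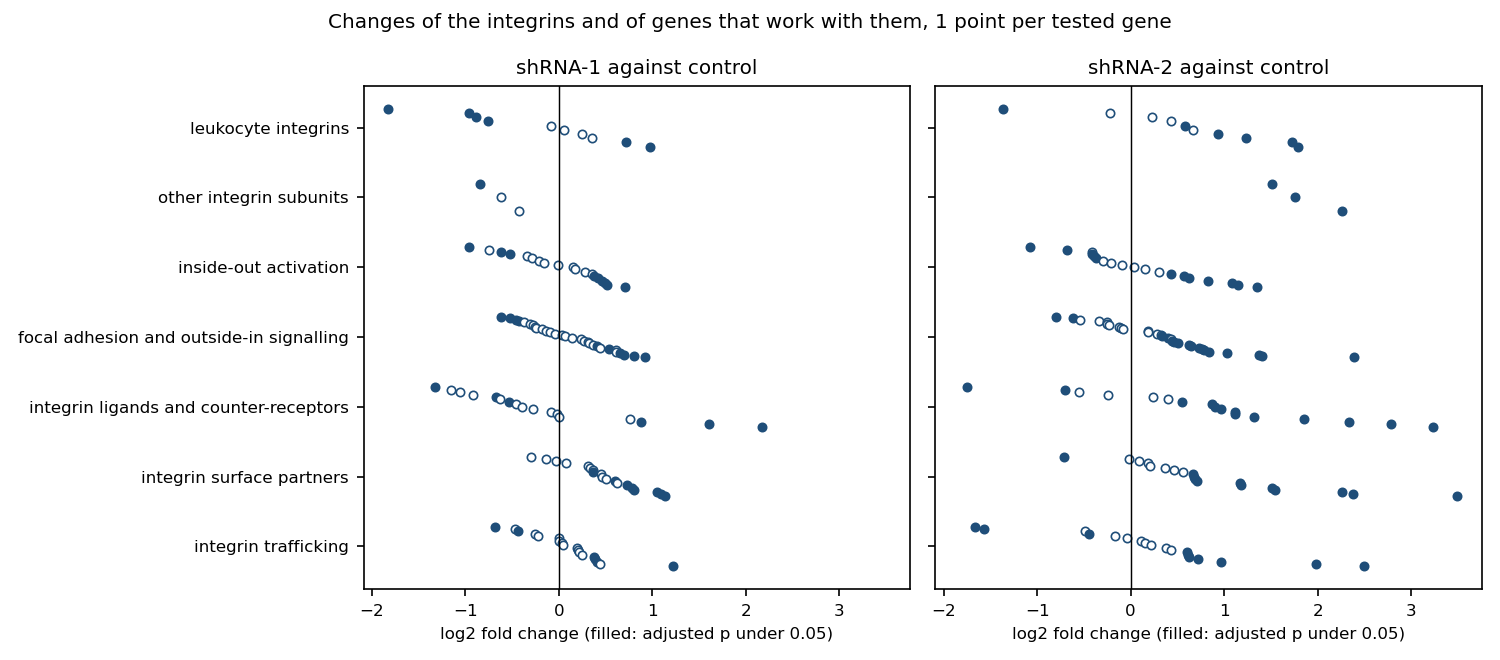
Log2 fold change with shRNA-1 (left) and shRNA-2 (right) against control of the integrin genes and of the lists of genes that work with them, 1 point per tested gene, filled at an adjusted p under 0.05. In the row of other integrin subunits, Itga1, Itgb3 and Itgb5 lie between 1.52 and 2.27 with shRNA-2 and below 0 with shRNA-1, and Itgb2l is not plotted.

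Marker lists of cell types that carry these integrins moved with the hairpins too. Not all of their genes are particular to mature cells. Kit, in the mast cell list, and Lyz2, in the monocyte list, are also among the myeloid identity genes. Beside the counts of calls below, the all-gene shares were 17.4% higher and 17.3% lower with shRNA-1, and 24.4% and 24.2% with shRNA-2. The summed level of 21 monocyte and macrophage genes was 1100 to 1470 CPM in the controls, 1640 to 2890 under shRNA-1 and 2500 to 4420 under shRNA-2, and 5 and 15 of 17 tested genes rose. The 5 became 3 without control replicate 1 or shRNA-1 replicate 3, 9 without shRNA-2 replicate 1 and 0 when the share of ribosomal RNA entered as a covariate. For 17 genes of mature neutrophils, which also carry Mac-1, it was 12700 to 13000, 29700 to 38600 and 36400 to 51400 CPM, and of 16 tested genes 13 rose and 1 fell with shRNA-1 and 11 rose and 3 fell with shRNA-2, while Ly6g, which defines mature neutrophils, was at 0.00, 0.0308 and 0.102 CPM (group means). The 11 rises of neutrophil genes with shRNA-2 became 8 with total-count scaling and without control replicate 2 or control replicate 3. Their 3 falls became 1 without control replicate 3 or shRNA-2 replicate 3 and with the ribosomal RNA covariate. For 14 dendritic cell genes the sum was 91.4 to 130.0, 89.6 to 144 and 164 to 277 CPM. The 6 tested genes gave 1 rise and 0 falls with shRNA-1, and 3 rises and 0 falls with shRNA-2. The 3 became 1 with total-count scaling and with that covariate. The defining genes Xcr1, Clec9a and Cd209a stood at group means of 0.0923 CPM or less. For 12 mast cell and basophil genes, a lineage rich in alpha4 and beta7, the sum was 42.8 to 53.5, 35.6 to 52.6 and 19.6 to 28.3 CPM. The 5 tested genes gave 0 rises and 1 fall with shRNA-1, and 0 rises and 4 falls with shRNA-2. Mcpt4 and Tpsb2 had no count. For 11 megakaryocyte and platelet genes, a lineage that carries Itgb3, the sum was 133 to 156, 156 to 197 and 85.5 to 166 CPM. The 5 tested genes gave 1 rise and 0 falls with shRNA-1, and 2 rises and 1 fall with shRNA-2. Their median log2 fold changes were 0.13 and 1.15. For 13 endothelial and stromal genes, cells that carry Itgb3 and Itgb5, the sum was 25.8 to 41, 12 to 23.6 and 48.5 to 49.1 CPM. The 5 tested genes gave 0 rises and 2 falls with shRNA-1, and 3 rises and 1 fall with shRNA-2. Their median log2 fold changes were -0.46 and 1.82, and Tek, Col3a1 and Pdgfra had no count. The part of such cells in the rises of Itgb3 and Itgb5 was not tested. The macrophage and neutrophil sums lay above all controls with both hairpins, as did Itgal, Itgav and Itgb1. Itgam, Itgb2, Itgb7, Itgax and Itga5 lay above all controls with shRNA-2 only. With shRNA-1, Itgam, Itgb2 and Itga5 overlapped the controls, and Itgb7 and Itgax lay below them. The part of macrophages and neutrophils in the changes of the integrin genes was not tested. The share of ribosomal RNA was higher in all shRNA-1 libraries than in all controls, so a covariate cannot fully separate the share from that hairpin. With the log2 of the share as a covariate the 6 integrin calls with shRNA-1 held, as did the 6 with shRNA-2. Itgax was then also called higher with shRNA-2 (0.92, edgeR adjusted p = 0.0142).

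**Figure D5:**
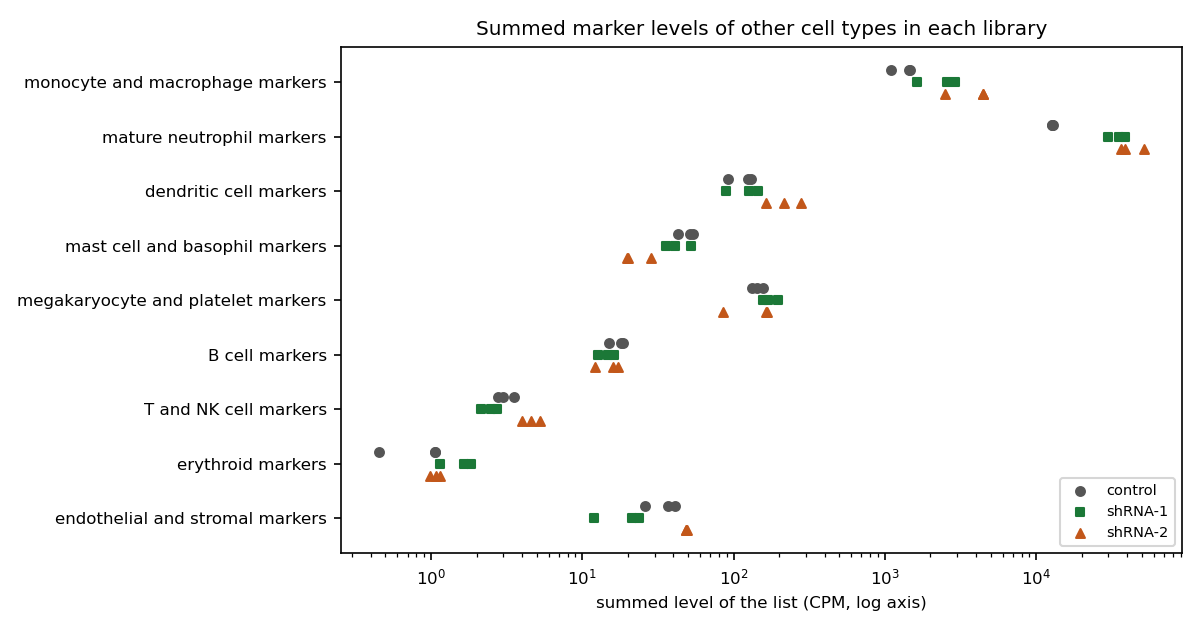
Summed level (CPM, log axis) of marker lists of other cell types in each library, without integrin genes. Monocyte and neutrophil sums are higher in the 6 knockdown libraries than in the 3 controls, mast cell sums are lower with shRNA-2, and T cell, B cell and erythroid sums reach 18.6 CPM at most.

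Genes with the pattern most like each integrin were taken over the 9 libraries by Pearson's r of log2 CPM, as a description of libraries that fall into 3 groups. Closest to Itgal were the nucleotide receptor gene P2ry13 (r = 0.992), Sirpa, the macrophage receptor for CD47 (r = 0.991), and Cd1d1 (r = 0.986). Closest to Itgam was Dhrs9 (r = 0.986), to Itga4 L3mbtl2 (r = 0.990) and the ETS factor gene Elf1 (r = 0.989), and to Itga6 the myosin gene Myo5a (r = 0.990). Itgb7 was most like Oxct1 (r = 0.990) and Pnpla2 (r = 0.990). Itga5, whose reads were few, reached 0.885 with Ascc1. Within the 10 genes, the closest pair was Itgam with Itgb1 (r = 0.945), and the most opposed was Itga4 with Itgav (r = -0.950).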

How the data were processed

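RNA was measured in 9 libraries primed with oligo-dT, 3 per group. The authors deposited raw read counts per gene symbol, from STAR 2.3.0e and HTSeq 0.6.0 on mm10, per the submitters' processing notes. Neither label nor header names the annotation release or strand setting. The 39179 entries were summed to 38926 symbols. Genes with few counts were removed with filterByExpr, which took away 0.0908% of counts and left 12663. One model of group means over all 9 libraries was fitted with edgeR 4.0.16 (R 4.3.3, TMM, quasi-likelihood test, Benjamini-Hochberg adjustment over all tested genes, threshold 0.05). The common biological coefficient of variation was 0.165. The procedure was also run on simulated counts with that same coefficient for all genes and changes in far fewer genes than were called here. That setting is simpler than these data, and its outcome is not reported here. Replicates of a group differed by more than sampling noise, with a chi-square per degree of freedom of at least 18.5. Counting error was largest for Itgax and Itga5, the integrin genes with the fewest reads. Lengths and positions came from GENCODE M21 on GRCm38, and sequences from RefSeq (GRCm38.p6). The alternatives included DESeq2 1.42.0, limma 3.58.1, other scalings and filters, a replicate block, a ribosomal RNA covariate and leaving out each library. Named genes were the 10 integrin genes, the other tested subunits, and per list up to 2 with the largest mean rise and up to 2 with the largest mean fall among those called with both hairpins in 1 direction. Named genes whose call was lost without a single library enter mostly through their list's counts. The members and lists were chosen with earlier results of these data known. Some genes of the lists are not reported here by name.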

Additional observations from a re-analysis of the deposited data

Results flagged for a closer look

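For 7 of the 10 integrin genes the effect differed between the hairpins by the test of the difference itself. On the log2 scale, shRNA-1 minus shRNA-2, these were Itgax (-2.49), Itgb7 (-1.99), Itgal (-1.07), Itgam (-1.02), Itgav (-0.75), Itga6 (-0.74) and Itga4 (0.48). Itgb7 was called in opposite directions against control. The other 6 were not, and of these Itgal, Itgav and Itga4 kept 1 direction with both hairpins.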

How the results depend on the processing

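Of 30 values (10 integrin genes in 3 comparisons), 22 kept their direction and their side of the threshold in all 19 alternatives and 8 changed in at least 1. The count of integrin genes higher with shRNA-1 than with shRNA-2 (Itga4) went from 1 to 0 with total-count scaling and without the 2 libraries with the largest ribosomal RNA share, an alternative chosen after seeing the data, and ranged from 0 to 1 when single libraries were left out. Genes called with shRNA-1 numbered 4389, 1358 when the share of ribosomal RNA entered as a covariate, and from 2916 (without control replicate 3) to 5178 when single libraries were left out. Signs turned for Itgam with shRNA-1 (0.01 without shRNA-1 replicate 1, range -0.17 to 0.01 over single libraries left out), Itga5 between hairpins (0.04 without shRNA-1 replicate 2), Itgb1 with shRNA-1 (-0.19 with total counts) and Dock1, a list gene, between hairpins (-0.02 without shRNA-1 replicate 3, -0.10 without shRNA-2 replicate 2, range -0.10 to 0.16 over single libraries, -0.18 without the 2 libraries). None of these was called, and the cause was not tested. Total-count scaling put the all-gene median at -0.23 (shRNA-1) and -0.21 (shRNA-2), and the higher share of calls from 50.1% to 23.8% and from 50.2% to 33.6%. The covariate moved it to 60.9% with shRNA-1.

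Replicate numbers were shared between groups, and the main fit did not use them as pairs. Deviations from the group means gave r from -0.129 to 0.335 for same-numbered libraries and from -0.419 to 0.288 for differently numbered ones. A shared effect of the replicate number is therefore not excluded. With the replicate block, 4963, 6645 and 5640 genes were called with shRNA-1, with shRNA-2 and between hairpins, against 4389, 6162 and 5192, and Itgax with shRNA-2 passed (0.70, edgeR adjusted p = 0.0414).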
